A study of Mus musculus with 44 samples.

Results

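Cytochrome P450 enzymes are the subject of the measurements given here. The genes were taken by symbol, Cyp followed by a family number, a subfamily letter and a gene number, with at least 100 summed counts over 44 RNA sequencing libraries of mouse intestine. Of 29720 genes in the count tables, 94 had such a symbol and 46 reached the minimum: 2 of family Cyp1, 24 of Cyp2, 5 of Cyp3, 9 of Cyp4 and 6 of other families. The members nearest the minimum were Cyp4f39 with 160 counts, Cyp2c67 with 174 and Cyp17a1 with 241. Just under it stood Cyp2j13 with 79 counts, Cyp27b1 with 68 and Cyp26b1 with 65. Cyp27b1, which makes active vitamin D, and Cyp26b1, which breaks down retinoic acid, are therefore not described further, and neither are Cyp24a1 and Cyp4a10.

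The study set inflamed against non-inflamed mice in 2 models of inflammatory bowel disease on the C57BL/6 strain, each on vehicle or on ATI-450, which blocks the protein kinase MK2. The MK2 gene Mapkapk2 stood at 86.5 to 157 CPM, the unit used here for counts scaled to library size, over all 44 libraries. The inflamed mice of the TNFΔARE model carried 1 Tnf allele without the AU-rich element that shortens the life of its mRNA (Tnf ∆ARE/+), and their non-inflamed littermates were Tnf +/+. Both entered treatment at 16 weeks of age. In the T cell transfer model every host was Rag1 null and so lacked T and B cells of its own. Its inflamed mice had received 400000 naive T cells and its non-inflamed mice 200000 bulk T cells, so the control also carried transferred cells. Inhibitor mice were given 3 mg/kg and the same again 16 h later, and vehicle mice a methylcellulose and Tween suspension. Tissue was taken 90 min after the second dose. These times are those of the sample labels, and the series' design text gives a longer treatment. Throughout, groups are named by model (TNF or TCT), inflamed (I) or non-inflamed (NI), and inhibitor (MKI) or vehicle (V). There were 6 TNF I MKI, 5 TNF I V, 5 TNF NI MKI and 5 TNF NI V libraries, and 6 TCT I MKI, 6 TCT I V, 6 TCT NI MKI and 5 TCT NI V libraries. Nothing in the labels says that replicates came from separate animals, so p-values measure the spread between these libraries, part of which may be technical.

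P450 enzymes are haem proteins that insert an oxygen atom into their substrates, using electrons passed on by P450 reductase in the endoplasmic reticulum or by ferredoxin in mitochondria. Families 1 to 3 are best known for oxidising drugs, pollutants and plant compounds, and several of them also oxidise arachidonic acid. Family 4 members hydroxylate the ends of fatty acids and of eicosanoids such as leukotriene B4, and the remaining families mostly act on cholesterol, bile acids, steroids and vitamins. In the gut most of the xenobiotic-oxidising enzymes sit in mature absorptive epithelial cells, with a mix of genes that differs between small intestine and colon, while some members belong to stromal or myeloid cells.

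Many of these genes are close copies lying side by side, which bears on every value of theirs. The Cyp2c members other than Cyp2c23 (7 genes) lie within 880 kb of chromosome 19, the 7 Cyp2d members within 424 kb of chromosome 15, Cyp3a11, Cyp3a25, Cyp3a44 and Cyp3a59 within 339 kb of chromosome 5, and 5 Cyp4f members within 495 kb of chromosome 17. The start of the coding sequence is shown for the copies whose values are read as uncertain, from the GENCODE M21 annotation of GRCm38, all within exon 1. Capitals mark the bases that differ within a set.
Cyp2c67, chr19:39648971-39649030, minus strand: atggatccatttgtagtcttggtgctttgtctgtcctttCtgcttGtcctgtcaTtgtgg
Cyp2c68, chr19:39740982-39741041, minus strand: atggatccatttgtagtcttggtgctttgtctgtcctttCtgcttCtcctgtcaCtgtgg
Cyp2c69, chr19:39886648-39886707, minus strand: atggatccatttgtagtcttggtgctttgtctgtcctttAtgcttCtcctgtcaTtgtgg
Cyp2d9, chr15:82452452-82452511, plus strand: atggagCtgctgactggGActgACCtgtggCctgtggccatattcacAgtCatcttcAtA
Cyp2d10, chr15:82407063-82407122, minus strand: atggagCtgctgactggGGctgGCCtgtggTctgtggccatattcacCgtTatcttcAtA
Cyp2d12, chr15:82555147-82555206, plus strand: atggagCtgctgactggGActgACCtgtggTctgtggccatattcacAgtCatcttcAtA
Cyp2d34, chr15:82620798-82620857, minus strand: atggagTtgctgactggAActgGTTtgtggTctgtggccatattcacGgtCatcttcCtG
Cyp3a25, chr5:146009481-146009540, minus strand: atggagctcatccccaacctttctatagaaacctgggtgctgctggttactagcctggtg
Cyp3a59, chr5:146079335-146079394, plus strand: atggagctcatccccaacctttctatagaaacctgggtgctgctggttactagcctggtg
Over these 60 bases the Cyp2c set differed at 3 positions, the Cyp2d set at 11 and the Cyp3a pair at 0. Over whole coding sequences, Cyp2c67, Cyp2c68 and Cyp2c69 were 96.5 to 97.7% identical, the Cyp2d set 88.8 to 92.5% and Cyp3a25 and Cyp3a59 97.5%. Of all stretches of 31 bases in a gene's transcripts, other genes shared 72.6% for Cyp2c40, 67.6% for Cyp2c67, 64.9% for Cyp2c69, 62.0% for Cyp2c68 and 50.2% for Cyp2d10, against 0.0% for Cyp1b1, Cyp7b1, Cyp17a1, Cyp27a1 and Cyp39a1. Single values within such a set are uncertain, and their sum is given where it matters.

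Promoters were read for the 37 members that matched RefSeq's table (GRCm38.p6). The 250 bases before the transcription start were searched on both strands for 3 short motifs, none of which contains another: CAAAGTCCA, a site of the hepatocyte nuclear factor HNF4, AGTTCA, a short site of nuclear receptors such as the pregnane X receptor, and GCGTG, the core of the site bound by the aryl hydrocarbon receptor. The HNF4 letters stood in 6 of 37 member promoters (Cyp3a11, Cyp2c40, Cyp2c65, Cyp2c67, Cyp2c68 and Cyp2c69), against 0.381% of all 27025 promoters, and the 5 Cyp2c genes among them are related copies. AGTTCA stood in 6 of 37, against 11.9% of all promoters, and GCGTG in 11 of 37, against 28.2%. Shown are an ileal gene, a pair of Cyp2c genes and Cyp1b1, a known target of the aryl hydrocarbon receptor, with the motif letters of either strand in capitals.
Cyp3a11, chr5:145879855-145880104, minus strand: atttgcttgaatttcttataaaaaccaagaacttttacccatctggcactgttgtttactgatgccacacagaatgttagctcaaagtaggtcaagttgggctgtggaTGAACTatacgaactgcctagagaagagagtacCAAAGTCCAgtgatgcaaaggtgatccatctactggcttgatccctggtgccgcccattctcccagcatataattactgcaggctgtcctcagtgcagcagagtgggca
Cyp2c65, chr19:39060756-39061005, plus strand: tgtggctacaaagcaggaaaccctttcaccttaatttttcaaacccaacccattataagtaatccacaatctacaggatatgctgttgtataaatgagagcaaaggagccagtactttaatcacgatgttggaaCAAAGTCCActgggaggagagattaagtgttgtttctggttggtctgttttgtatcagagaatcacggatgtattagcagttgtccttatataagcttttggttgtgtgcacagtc
Cyp2c68, chr19:39741102-39741351, minus strand: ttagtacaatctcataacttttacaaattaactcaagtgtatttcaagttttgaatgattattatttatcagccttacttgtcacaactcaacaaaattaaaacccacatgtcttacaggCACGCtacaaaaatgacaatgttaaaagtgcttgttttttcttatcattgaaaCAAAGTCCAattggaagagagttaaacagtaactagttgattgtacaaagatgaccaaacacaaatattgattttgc
Cyp1b1, chr17:79715062-79715311, minus strand: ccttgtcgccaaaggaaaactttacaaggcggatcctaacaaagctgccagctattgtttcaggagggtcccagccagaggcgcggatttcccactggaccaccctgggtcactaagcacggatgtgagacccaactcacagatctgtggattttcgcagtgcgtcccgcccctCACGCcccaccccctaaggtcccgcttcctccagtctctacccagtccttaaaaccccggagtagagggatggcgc
A match describes letters and is not a bound site.

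Library totals ran from 5800923 counts in the TNF model to 22347011 counts in the TCT model. The labels name ileum and distal colon without tying either to a model. Sis, a small intestinal brush border enzyme, stood at 790 to 5380 CPM in the 21 TNF libraries, and Hoxb13, a gene of the distal colon, at 98 to 562 CPM in 22 of the 23 TCT libraries. The library labelled TCT I V replicate 3 was the exception, with Sis at 6070 CPM and Hoxb13 at 0.0715 CPM, and TCT I V replicate 1 held 186 CPM of Sis and 39200 CPM of 18 pancreatic acinar genes. The acinar genes also summed to 21.8 to 11600 CPM in TCT I MKI libraries. They summed to 55.6 to 241 CPM in TCT NI MKI and 43.4 to 309 CPM in TCT NI V libraries. TNF I V replicates 1, 3 and 5 held 277 to 776 CPM of Car1, an abundant colonic enzyme, against 1.22 and 8.62 CPM in the other TNF I V libraries. Car1 ran from 0.167 to 289 CPM in TNF I MKI libraries. Other colonic genes did not follow it. Of 14 colonocyte genes 10 were tested in TNF I V against TNF NI V, with 3 higher and 3 lower. The list summed to 752 to 1550 CPM in TNF I V and 1020 to 2820 CPM in TNF NI V libraries, and Hoxb13 was at most 0.226 CPM in TNF I V. Among 12 pan-epithelial genes Epcam was listed at 0 in 41 of 44 libraries while the list summed to 11100 CPM or more, so a gene listed at 0 may still be expressed.

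**Figure D1:**
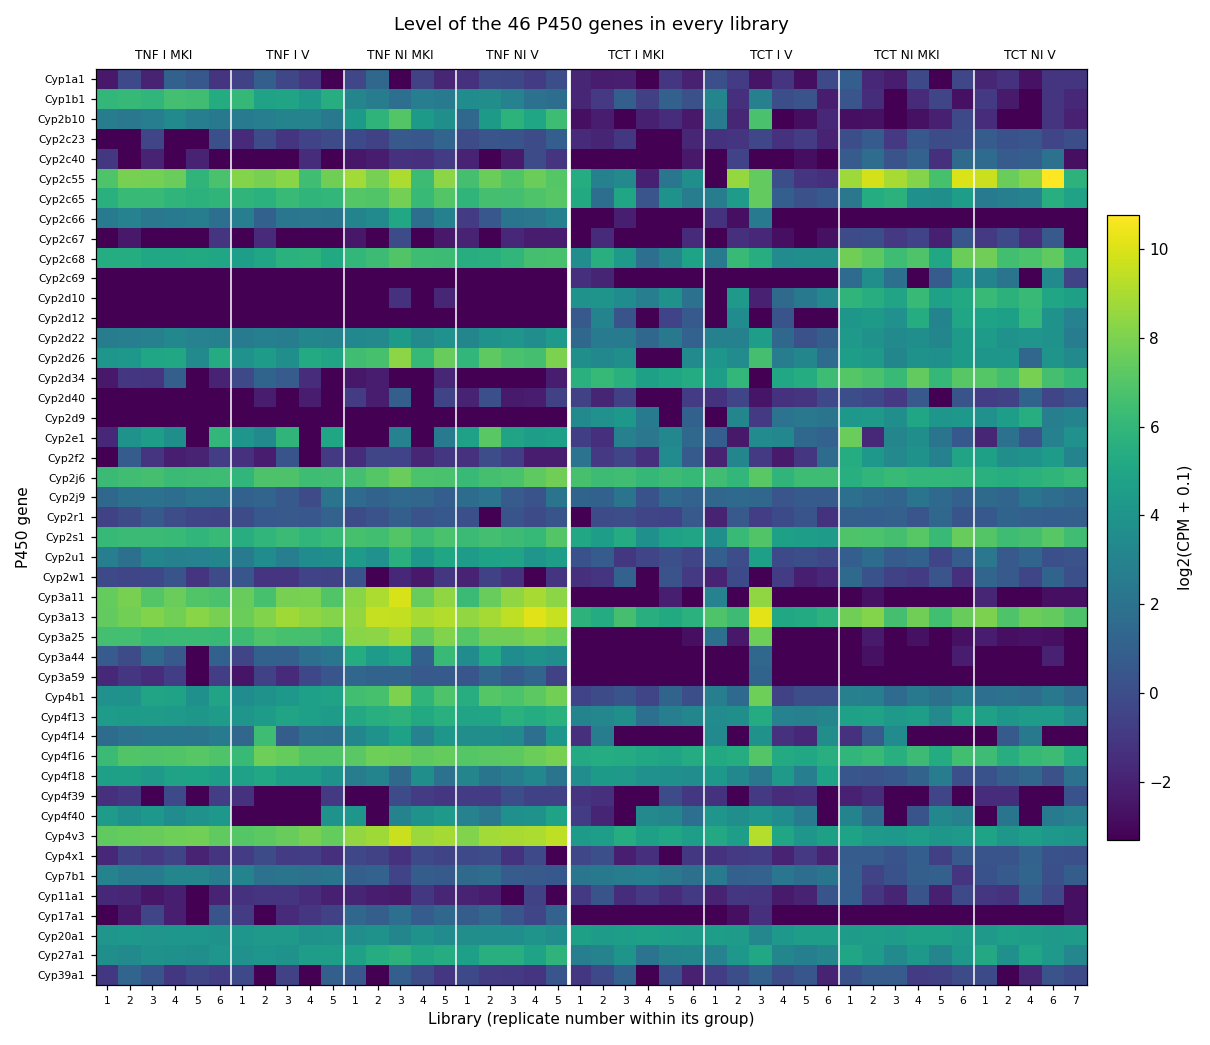
Level of the 46 P450 genes (rows) in the 44 libraries (columns, by group and replicate number), as log2(CPM + 0.1). The Cyp3a11, Cyp3a25, Cyp3a44 and Cyp2b10 rows are brighter in the TNF groups than in most TCT libraries. TCT I V replicate 3 and, at a lower level for Cyp3a11, Cyp3a25 and Cyp2b10, TCT I V replicate 1 are exceptions. The Cyp2d9, Cyp2d10, Cyp2d12 and Cyp2d34 rows run the other way.

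In non-inflamed vehicle tissue the TNF and TCT libraries differed in 27 of the 44 P450 genes tested, and different genes led their levels. Per kilobase of exon, Cyp3a13, an intestinal member of the drug-oxidising Cyp3a subfamily, led the TNF NI V libraries with a mean level of 233 CPM per kb and 22.4% of the summed P450 level. Cyp4v3, a fatty acid hydroxylase, followed with 128 CPM per kb and Cyp3a25 with 97.9 CPM per kb. In TCT NI V libraries Cyp2c55, which oxidises arachidonic acid and is known from the mouse colon, led with a mean level of 310 CPM per kb and 46.7% of the summed level, but it ran from 27.4 to 882 CPM per kb. Cyp2c68 stood at 72.8 CPM per kb there and Cyp3a13 at 57.9 CPM per kb. The order of neighbours rests on wide ranges: Cyp3a13 ran from 123 to 384 CPM per kb and Cyp4v3 from 71.5 to 184 CPM per kb in TNF NI V libraries, so the first places overlapped.

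Of 44 members tested between these groups, 18 were higher in TNF NI V and 9 lower, with 32.0% of all 15565 genes tested called (17.7% higher and 14.4% lower). Members near 0 in the TNF or the TCT libraries passed the count filter through the other model. They could be called in that model's direction only, and the counts include them. The median log2 fold change was 0.97 over the members and -0.02 over all genes tested, and it stayed 0.97 with the 6 genes at 0 in a group set to their bound. Cyp3a11, the main steroid and drug hydroxylase of mouse liver and small intestine, had 78.4, 179, 346, 490 and 327 CPM in TNF NI V libraries, against 0.182, 0, 0, 0.0473 and 0.0491 CPM in TCT NI V libraries. Cyp2b10, a target of the constitutive androstane receptor, had 2.58, 20.5, 54.7, 32.8 and 83.3 CPM in TNF NI V libraries and at most 0.331 CPM in TCT NI V libraries. For both genes the groups lay far apart, with fitted log2 fold changes of 12.14 ± 1.91 (SE, adjusted p = 3.45e-06) and 7.95 ± 1.51 (adjusted p = 6.33e-05). Over TCT NI V they held only 5 and 14 counts, and both fell under the count filter in the TCT model. They entered the fit through the TNF libraries, so these fitted sizes and p-values are not read as support. The sum of Cyp3a11, Cyp3a25, Cyp3a44 and Cyp3a59 averaged 507 ± 197 CPM in TNF NI V libraries and 0.14 ± 0.121 CPM in TCT NI V libraries (SD, n = 5 each). Cyp3a13 (log2 fold change 2.01 ± 0.59), Cyp2d26 (3.41 ± 0.79) and Cyp2c65 (2.47 ± 0.90) were higher with non-overlapping groups, and Cyp2c66, an arachidonic acid oxidase, was at 0 in all TCT NI V libraries and at least 104-fold higher in TNF NI V.

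In family Cyp4, 5 of 8 tested members were higher in TNF NI V and 0 lower, and among members of other families 1 of 6 was higher and 1 lower. Cyp4b1, which hydroxylates fatty acids and some xenobiotics, had 43.7, 132, 112, 149 and 218 CPM in TNF NI V libraries, against 3.52, 3.85, 3.24, 5.1 and 3.19 CPM in TCT NI V libraries (log2 fold change 5.11 ± 0.99, adjusted p = 7.81e-05). Cyp4v3 (4.54 ± 0.65), Cyp2u1 (3.52 ± 0.70), Cyp4f16 (1.43 ± 0.28) and Cyp4f18 (1.71 ± 0.45) were higher as well. Cyp1b1, an oxidase of steroids and aromatic hydrocarbons, had 3.26 to 12.5 CPM in TNF NI V libraries and 0 to 0.424 CPM in TCT NI V libraries (5.14 ± 0.86). Cyp17a1, a steroid hydroxylase best known from gonads and adrenal, held 80 counts in all over TNF NI V libraries and 1 over TCT NI V libraries, a ratio of 153 with a 95% counting interval of 26.6 to 6110. Cyp27a1, the sterol 27-hydroxylase of bile acid synthesis, did not pass (0.89 ± 0.39, adjusted p = 0.0743), and neither did Cyp7b1, an oxysterol hydroxylase (0.46 ± 0.36, adjusted p = 0.357).

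The Cyp2d copies and Cyp2f2 ran the other way. Cyp2d10 was at 0 in all 5 TNF NI V libraries and had 73.5, 53.8, 72.8, 30.7 and 26.1 CPM in TCT NI V libraries. Against a floor of 3 counts over the TNF group, Cyp2d10 was at least 811-fold lower in TNF NI V, Cyp2d12 at least 438-fold, Cyp2d9 at least 298-fold and Cyp2c69 at least 79.4-fold. These bounds pool the libraries of a group, and Cyp2c69 was also at 0 in 1 TCT NI V library. Cyp2d34 held 1 count over the TNF NI V group and 11287 counts over TCT NI V, and the 4 Cyp2d genes summed to 0.0233 ± 0.0521 CPM in TNF NI V and 224 ± 119 CPM in TCT NI V libraries (SD, n = 5 each). Cyp2f2, a naphthalene oxidase known from airway cells, had 0.111 to 0.89 CPM in TNF NI V and 8.15 to 25.4 CPM in TCT NI V libraries (log2 fold change -5.37 ± 1.05, adjusted p = 9.71e-05). Cyp2w1 had 0 to 0.556 CPM in TNF NI V and 0.672 to 2.3 CPM in TCT NI V libraries (-2.46 ± 0.82). Both fell under the count filter in the TNF model and entered the fit through the TCT libraries. Their fitted sizes and p-values are likewise not read as support. Cyp20a1 (-0.76 ± 0.16) passed with a smaller difference. Cyp2c55 itself did not pass, with 97.8 to 197 CPM in TNF NI V libraries inside the range of 54.6 to 1760 CPM in TCT NI V libraries (log2 fold change -2.06 ± 1.15, adjusted p = 0.179).

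Tissue, genotype and batch cannot be told apart here, because the TNF NI V libraries all belong to batch 2 and the TCT NI V libraries to batches 1 and 4. With batch as a common term over all groups, 12 members were called instead of 27. Without TCT I V replicate 3, which enters the joint fit through the shared spread, 28 were called, with Cyp27a1 added, against 33.4% of all genes tested.

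**Figure D2:**
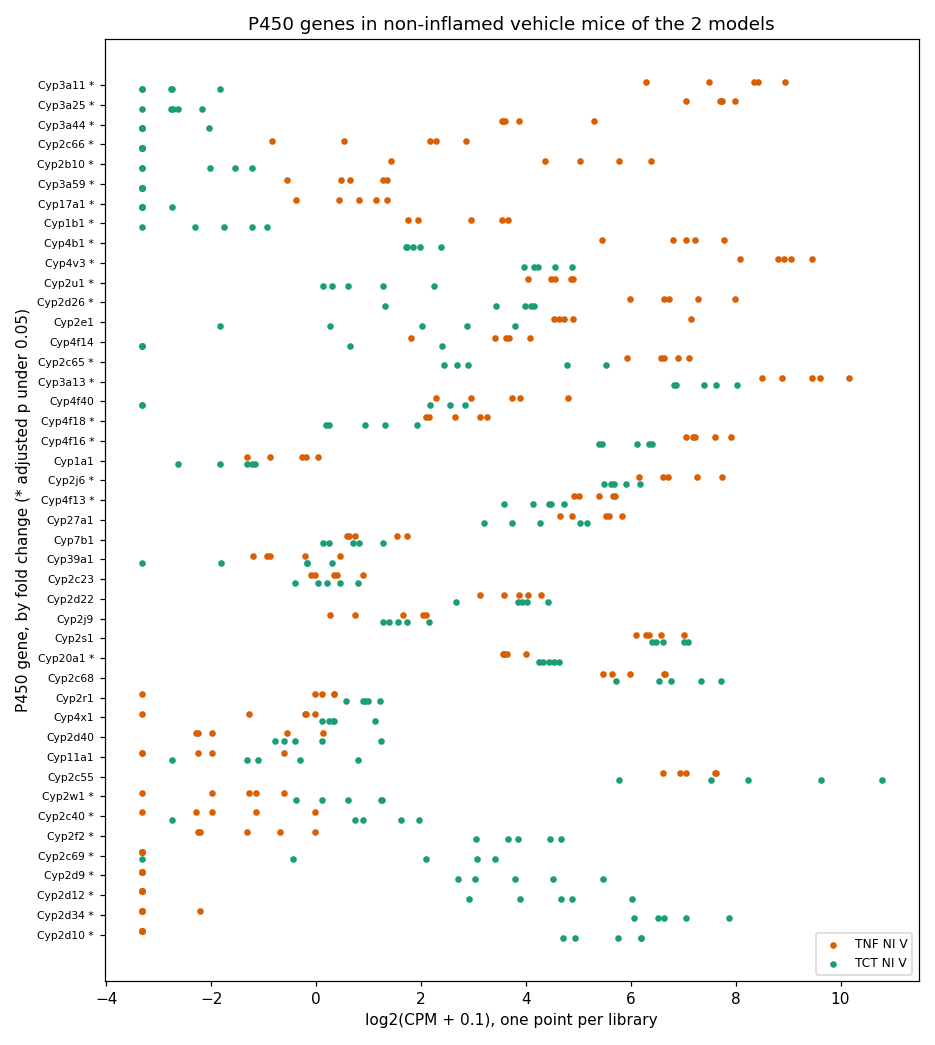
P450 genes in TNF NI V (orange) and TCT NI V (green) libraries, 1 point per library, as log2(CPM + 0.1), ordered by fold change and starred where the adjusted p is under 0.05. Cyp3a11 (78.4 to 490 CPM in TNF, at most 0.182 CPM in TCT) stands at the top and the Cyp2d copies at the bottom, with no overlap between the models.

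In the inflamed ileum-marked tissue of the TNF model, 7 of 14 tested members of family Cyp2, 4 of 5 of Cyp3, 3 of 7 of Cyp4 and 2 of 5 of other families were lower on vehicle, and Cyp1b1, Cyp4f18, Cyp7b1 and Cyp20a1 were higher. Of 32 members tested, 4 were higher and 16 lower in TNF I V than in TNF NI V, 62.5% of those tested, against 15% of all 14370 genes tested (8.07% higher and 6.94% lower). The 16 and the share include Cyp3a59 and Cyp17a1. Both passed the count filter through the non-inflamed TNF libraries and could only be called lower. The median log2 fold change was -0.82 over the members and -0.02 over all genes tested. The summed level of all 46 members averaged 1630 ± 233 CPM in TNF I V and 2940 ± 887 CPM in TNF NI V libraries (SD, n = 5 each). In whole tissue, fewer cells of a type and less RNA per cell cannot be told apart.

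Cyp1b1, typical of stromal cells, had 67.2, 27.9, 30.5, 19.2 and 44 CPM in TNF I V libraries, against 11.6, 12.5, 7.67, 3.76 and 3.26 CPM in TNF NI V libraries. Every inflamed library lay above every non-inflamed library (log2 fold change 2.23 ± 0.40, adjusted p = 0.000619). Of 8 fibroblast genes 2 were called higher, 0 lower and 6 were not called. Their summed levels ran from 709 to 1400 CPM in TNF I V and from 272 to 792 CPM in TNF NI V libraries. The part of fibroblasts in the Cyp1b1 result was not tested. Cyp1a1, a classic target of the aryl hydrocarbon receptor, had at most 1.86 CPM in TNF I V and 0.932 CPM in TNF NI V libraries and fell under the count filter.

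Cyp4f18, which inactivates leukotriene B4 in mouse neutrophils, had 26.9, 33.7, 23.1, 22.8 and 15 CPM in TNF I V libraries, against 8.58, 4.34, 6.2, 9.51 and 4.19 CPM in TNF NI V libraries. The groups did not overlap (log2 fold change 1.94 ± 0.34, adjusted p = 0.000526). All 8 of 8 tested neutrophil genes and 12 of 13 monocyte and macrophage genes were higher too, and the neutrophil list summed to 152 to 368 CPM in TNF I V and 6.64 to 11.6 CPM in TNF NI V libraries. The part of these cells in the Cyp4f18 result was not tested. Cyp7b1 had 8.04, 3.73, 4.17, 3.9 and 4.33 CPM in TNF I V libraries, against 2.81, 3.23, 1.58, 1.44 and 1.4 CPM in TNF NI V libraries (1.25 ± 0.33, adjusted p = 0.0122), again with no overlap. Cyp20a1, whose substrate is not known, was slightly higher (0.44 ± 0.15, adjusted p = 0.0471), with overlapping groups.

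Among xenobiotic-oxidising genes, all 5 members of family Cyp3 were tested and 4 were called lower. Cyp3a59, among these 4, had 0.0752 to 1.26 CPM in TNF I V and 0.583 to 2.45 CPM in TNF NI V libraries. It entered through the non-inflamed libraries, so its call is not read as support. Cyp3a25 had 82.2, 120, 104, 99.9 and 72.3 CPM in TNF I V libraries, against 133, 211, 215, 253 and 207 CPM in TNF NI V libraries (log2 fold change -1.02 ± 0.21, adjusted p = 0.00221), and Cyp3a44 had 0.677 to 4.47 CPM in TNF I V and 11.6 to 39.5 CPM in TNF NI V libraries (-3.04 ± 0.77, adjusted p = 0.00984). Neither gene's groups overlapped. Cyp3a13 had 197, 274, 429, 344 and 286 CPM in TNF I V libraries, against 362, 473, 698, 1140 and 777 CPM in TNF NI V libraries (-1.21 ± 0.28, adjusted p = 0.00554), where 1 inflamed library lay above the lowest control. Cyp3a11 did not pass: it had 183, 101, 236, 246 and 124 CPM in TNF I V libraries and 78.4 to 490 CPM in TNF NI V libraries (-0.61, 95% CI -1.55 to 0.34). The sum of Cyp3a11, Cyp3a25, Cyp3a44 and Cyp3a59 averaged 277 ± 67.5 CPM in TNF I V and 507 ± 197 CPM in TNF NI V libraries (SD, n = 5 each).

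In family Cyp2, 7 of 14 tested members fell and 0 rose. Cyp2d26, a member of the drug-oxidising Cyp2d subfamily, had 13.8, 21.9, 12.9, 38.7 and 30.5 CPM in TNF I V libraries, against 63.6, 155, 106, 98.9 and 254 CPM in TNF NI V libraries (log2 fold change -2.65 ± 0.50, adjusted p = 0.001). Cyp2b10 had 5.17 to 7.74 CPM in TNF I V libraries, and 4 of 5 TNF NI V libraries lay above that at 20.5 to 83.3 CPM, with the other at 2.58 CPM (-2.54 ± 0.70, adjusted p = 0.017). Smaller falls passed for Cyp2c65 (-0.76 ± 0.24, adjusted p = 0.0356), an intestinal arachidonic acid oxidase, and for Cyp2s1 (-0.54 ± 0.17, adjusted p = 0.0424), a member found mainly outside the liver, as well as for Cyp2d22 (-1.05 ± 0.24) and Cyp2c68 (-0.81 ± 0.26). Cyp2c55 stood at 86.6 to 310 CPM in TNF I V and 97.8 to 197 CPM in TNF NI V libraries and did not pass (0.58, 95% CI -0.34 to 1.5). Cyp2e1, the ethanol-oxidising enzyme, had 0 to 60.9 CPM in TNF I V and 23.2 to 142 CPM in TNF NI V libraries (-1.41, 95% CI -3.92 to 1.10).

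Of 7 tested Cyp4 members 3 fell and 1 rose, and of 5 members of other families 2 fell and 2 rose. Cyp4b1 had 11.4, 15.1, 18.3, 24.6 and 27.7 CPM in TNF I V libraries, against 43.7, 132, 112, 149 and 218 CPM in TNF NI V libraries (log2 fold change -2.91 ± 0.43, adjusted p = 0.000112), and Cyp4v3 had 135, 150, 184, 236 and 173 CPM in TNF I V libraries, against 272, 447, 485, 533 and 701 CPM in TNF NI V libraries (-1.49 ± 0.24, adjusted p = 0.000314). Cyp27a1 had 14, 16.9, 14.4, 23.4 and 22.8 CPM in TNF I V libraries, against 25.1, 46, 47.8, 29.3 and 56.6 CPM in TNF NI V libraries (-1.22 ± 0.23, adjusted p = 0.00124). In all of these the groups stayed apart. Cyp2u1, which hydroxylates long-chain fatty acids, and Cyp4f13 fell with no overlap either (-1.42 ± 0.33 and -0.83 ± 0.18). Cyp17a1 was called lower (-2.68 ± 0.72) and averaged only 0.323 CPM in TNF I V and 1.63 CPM in TNF NI V libraries, without overlap. It entered through the non-inflamed libraries, so its fitted size is not read as support. Cyp4f14, which ends leukotriene B4 and vitamin E activity by hydroxylation, had 83.2 CPM in 1 TNF I V library and 1.67 to 3.66 CPM in the other 4, against 3.43 to 16.8 CPM in TNF NI V libraries, and no change was called (0.82, 95% CI -0.87 to 2.5). Its neighbour Cyp4f40 was listed at 0 in 4 of 5 TNF I V libraries and had 4.79 to 28 CPM in TNF NI V libraries, and it did not pass (-3.82 ± 1.30, adjusted p = 0.0545). Both genes together averaged 21.7 ± 35.0 CPM in TNF I V and 24.8 ± 11.4 CPM in TNF NI V libraries (SD, n = 5 each).

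Of 18 small intestinal enterocyte genes 14 fell in TNF I V and 0 rose, with summed levels of 15500 to 27000 CPM in TNF I V and 30400 to 55500 CPM in TNF NI V libraries. Of 11 tested pan-epithelial genes 1 rose and 1 fell, with a median log2 fold change of -0.02. The part of these cells in the P450 results was not tested. The count of called members was 16 in batch 2 alone and 12 with the other 2 groups left out. It was 7 without TNF I V replicates 1, 3 and 5, the libraries with high Car1, which leaves 2 inflamed libraries. Cyp1b1, Cyp4f18, Cyp4b1 and Cyp4v3 passed under each of the 19 alternatives run for this comparison.

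**Figure D3:**
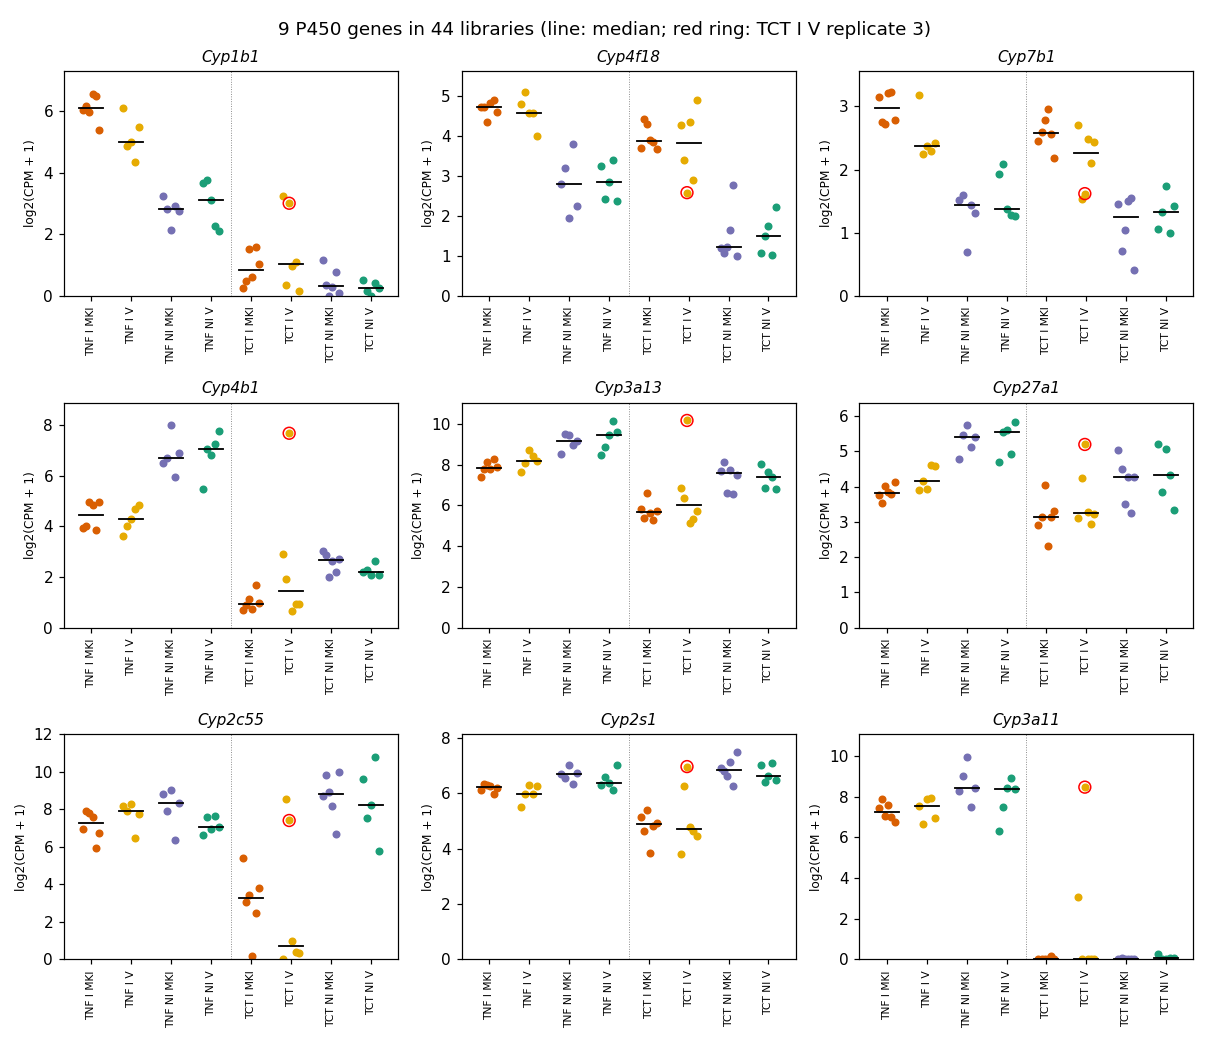
9 P450 genes in the 8 groups, 1 point per library as log2(CPM + 1), with a line at the group median and a red ring on TCT I V replicate 3. Cyp1b1, Cyp4f18 and Cyp7b1 lie higher in TNF I V than in TNF NI V, Cyp4b1, Cyp3a13 and Cyp27a1 lower, and the ringed library lies with the TNF libraries for Cyp4b1, Cyp3a13 and Cyp3a11.

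In the colon-marked TCT model Cyp2c40, Cyp2c68, Cyp2c69, Cyp2d10 and Cyp4x1 were called lower on vehicle and Cyp4f14, Cyp4f18 and Cyp7b1 higher. Of 38 members tested, 3 were higher and 5 lower in TCT I V than in TCT NI V, 21.1% of those tested, against 12.4% of all 15317 genes tested (6.86% higher and 5.51% lower). The median log2 fold change was -0.46 over the members and 0.03 over all genes tested. Without TCT I V replicate 3, the library with the most ileal transcripts, 2 were higher and 9 lower, the median was -1.06, and 18.5% of all genes tested were called. TCT I V replicate 1, which held 186 CPM of Sis, 7.5 CPM of Cyp3a11 and 5.71 CPM of Cyp2b10, stays in those values. Without both libraries 2 were higher and 8 lower, and the share over all genes is not given for that fit. Cyp4b1 passed as well (-1.63 ± 0.48, adjusted p = 0.0354), and Cyp2c67 and Cyp2c68 did not (adjusted p = 0.0773 and 0.0521).

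Cyp4f18 had 5 to 29.3 CPM with a median of 14 CPM in 6 TCT I V libraries, against 1.09, 1.82, 2.38, 1.04 and 3.68 CPM in TCT NI V libraries (log2 fold change 2.71 ± 0.55, adjusted p = 0.00581), and the groups did not overlap. Of 11 neutrophil genes 9 were higher, with summed levels of 58.8 to 2020 CPM in TCT I V and 82.3 to 705 CPM in TCT NI V libraries, and their part in the Cyp4f18 result was not tested. Cyp7b1 had 1.88 to 5.54 CPM with a median of 3.83 CPM in TCT I V libraries, against 1.09, 1.52, 2.32, 0.992 and 1.67 CPM in TCT NI V libraries (1.44 ± 0.39, adjusted p = 0.0208), with 1 control above the lowest inflamed libraries. Cyp1b1 ran from 0.107 to 8.48 CPM in TCT I V and from 0 to 0.424 CPM in TCT NI V libraries and did not pass (3.16 ± 1.17, adjusted p = 0.0791). Cyp4f14 was called higher (10.18 ± 3.05, adjusted p = 0.0473), but it stood at 10.4, 0, 15.2, 0.302, 0.208 and 12.3 CPM in TCT I V and at 0, 1.47, 5.19, 0 and 0 CPM in TCT NI V libraries, and without replicate 3 its adjusted p was 0.0517.

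Cyp2c40, Cyp2c68, Cyp2c69 and Cyp2d10, members of the blocks of close copies, made up 4 of the 5 genes called lower. Cyp2c68 had 5.22 to 73.2 CPM with a median of 13 CPM in TCT I V libraries, against 212, 92.9, 109, 161 and 52.6 CPM in TCT NI V libraries (log2 fold change -2.15 ± 0.60, adjusted p = 0.0243). TCT I V replicate 2 had the 73.2 CPM and was the only inflamed library above the lowest control. Cyp2c40 and Cyp2c69 were called too, and Cyp2c69 held 0 counts over TCT I V and 455 over TCT NI V, at least 168-fold lower against the floor of 3 counts over the group. That bound pools libraries: TCT NI V had 8.24, 4.15, 0, 10.6 and 0.639 CPM of Cyp2c69, so 1 control was at 0 as well. Cyp2c40 held 14 counts over TCT I V and 190 over TCT NI V. Both passed the count filter through the non-inflamed TCT libraries and could only be called lower. The 5 lower members and the share of members called include them. The sum of Cyp2c40, Cyp2c67, Cyp2c68 and Cyp2c69, which depends less on how reads are split among the copies, averaged 26.8 ± 27.0 CPM in TCT I V (n = 6) and 133 ± 67.2 CPM in TCT NI V libraries (n = 5, SD). Cyp2d10 had 0 to 19.4 CPM with a median of 4 CPM in TCT I V and 26.1 to 73.5 CPM in TCT NI V libraries (-2.46 ± 0.78, adjusted p = 0.0452), with no overlap. The 4 Cyp2d copies summed to 53.6 ± 40.9 CPM in TCT I V and 224 ± 119 CPM in TCT NI V libraries, and neither sum was tested. Cyp4x1, without a known main substrate, was called lower at a low level (-1.43 ± 0.46, adjusted p = 0.0455), with at most 0.5 CPM in TCT I V and at least 0.982 CPM in TCT NI V libraries. It too is among the 5 lower members and passed the count filter through the non-inflamed TCT libraries. Its fitted size and p-value are therefore not read as support.

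Cyp2c55, the P450 gene with the highest level per length in TCT NI V libraries, had 0, 375, 169, 0.955, 0.332 and 0.268 CPM in TCT I V replicates 1 to 6, against 796, 185, 301, 1760 and 54.6 CPM in TCT NI V libraries. In 4 of 6 inflamed libraries it was under 1 CPM, while replicate 2 lay within the control range and replicate 3 is the library with the most ileal transcripts. The change did not pass (-3.29 ± 1.51, adjusted p = 0.155, and 0.129 without replicate 3). Cyp2s1 had 13, 76.5, 124, 26.2, 23.7 and 20.9 CPM in TCT I V and 85 to 137 CPM in TCT NI V libraries. It missed the threshold with all libraries (-1.40 ± 0.47, adjusted p = 0.055) and passed without replicate 3 (-1.88 ± 0.38, adjusted p = 0.00321).

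TCT I V replicate 3 set the direction of several members that the ileum holds at high level. Cyp4b1 had 203 CPM in it and 0.553 to 6.52 CPM in the other 5 TCT I V libraries, against 3.19 to 5.1 CPM in TCT NI V libraries, so that its log2 fold change was 2.97 ± 1.40 with that library and -1.12 ± 0.50 without it. Cyp3a13 had 1160 CPM in it and 34.3 to 117 CPM in the others, against 113 to 260 CPM in TCT NI V libraries, and its log2 fold change was 0.61 ± 0.85 with it and -1.29 ± 0.40 without it (adjusted p = 0.661 and 0.0315). Cyp2d22 passed only without it (-1.76 ± 0.50, adjusted p = 0.021), as did Cyp2c67 (-2.91 ± 1.00, adjusted p = 0.0497). Cyp2c67 passed the count filter through the non-inflamed TCT libraries and could only be called lower, so its call is not read as support. Cyp2d26 (1.01 ± 1.01 with replicate 3 and -0.31 ± 0.87 without it), Cyp27a1 (-0.39 ± 0.54 and -0.86 ± 0.48) and Cyp2e1 (-0.73 ± 1.41 and -1.17 ± 1.47) passed in neither.

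The TCT calls rest on few libraries in shared batches. The 5 TCT I V and 2 TCT NI V libraries of batch 4 gave 0 called members by edgeR, with 4 at an unadjusted p under 0.05, and the 2 groups fitted without the others also gave 0, with 6 at an unadjusted p under 0.05. With all libraries DESeq2 called 14. The count of 8 became 15 without TCT I V replicate 2, 5 without TCT I V replicate 1 or 6 or TCT NI V replicate 1, 2 or 4, and 1 without TCT NI V replicate 6.

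**Figure D4:**
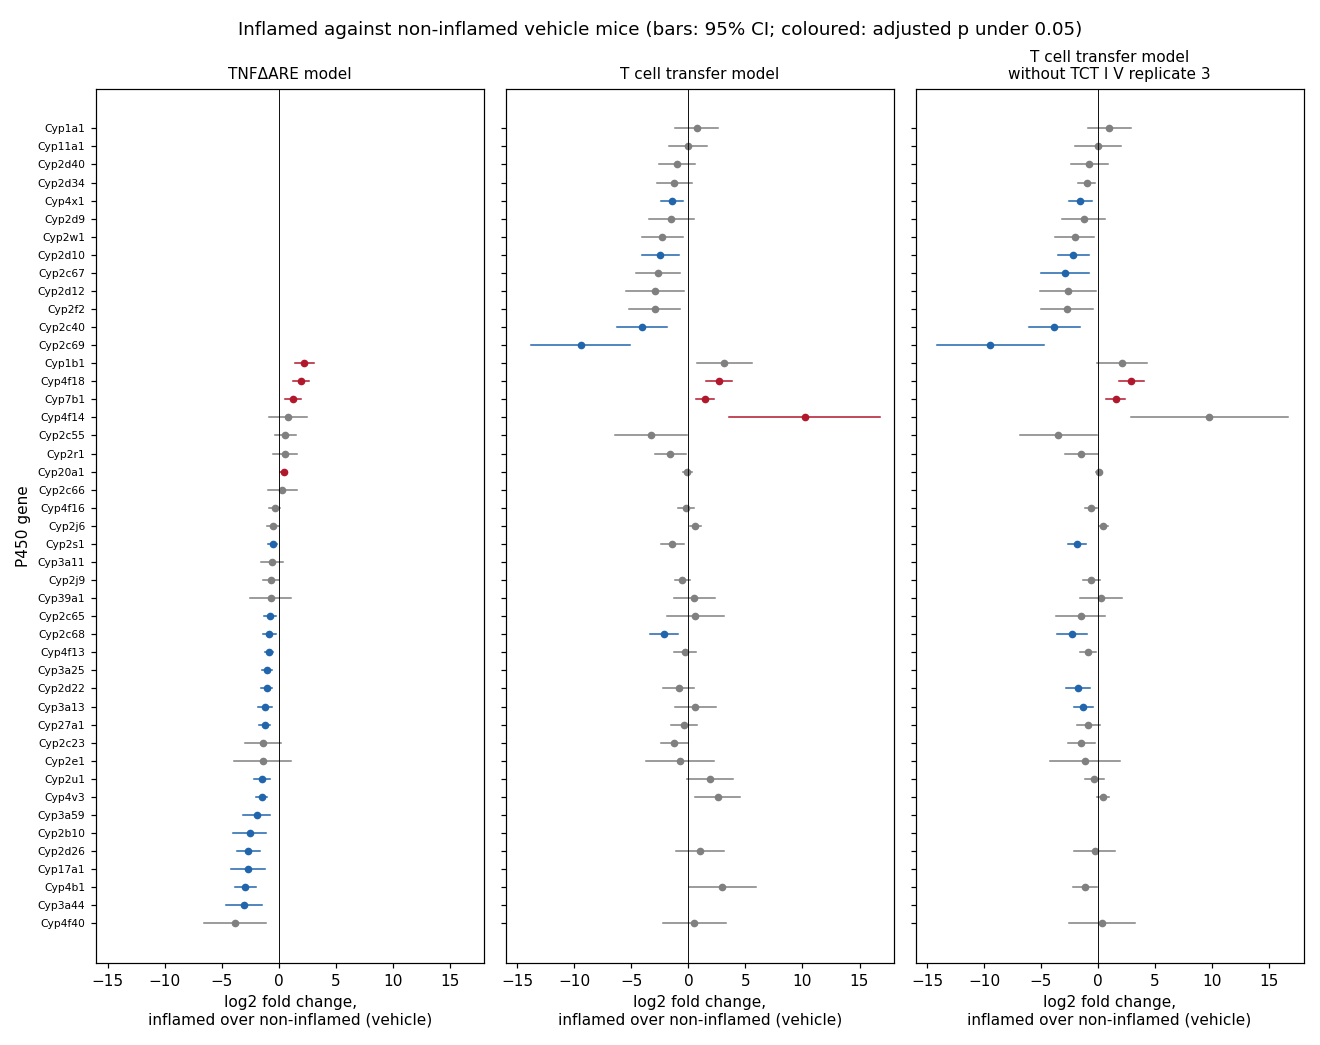
Log2 fold change of each P450 gene, inflamed over non-inflamed on vehicle, with its 95% confidence interval, in the TNFΔARE model (left), the T cell transfer model (middle) and the T cell transfer model without TCT I V replicate 3 (right), coloured where the adjusted p is under 0.05. Cyp1b1 is called higher in the left panel, Cyp4f18 and Cyp7b1 in all panels, and Cyp4b1 changes sign between the middle and right panels. The fitted value of Cyp2c69, which is at 0 in all TCT I V libraries, is not a bound.

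Between the models, 2 of the 4 genes higher in TNF I V were also among the 3 higher in TCT I V (Cyp4f18 and Cyp7b1), and 1 of the 16 lower (Cyp2c68) was among the 5 lower there. The rest of those 5, Cyp2c40, Cyp2c69, Cyp2d10 and Cyp4x1, were not tested in the TNF model and could not be shared. Of the 16, Cyp2b10, Cyp3a25, Cyp3a44, Cyp3a59 and Cyp17a1 were not tested in the TCT model. Without TCT I V replicate 3, the shared falls were Cyp2c68, Cyp2d22, Cyp2s1 and Cyp3a13, 4 of 16 in the TNF model and 4 of 9 in the TCT model. Cyp2c67, also among those 9, was not tested in the TNF model either. The overlap over all genes is not given, so these counts are not read as a difference between the models. The difference of the inflammation effects, TNF minus TCT, was tested in a joint fit of all libraries. Of 44 members tested, 1 was higher and 6 lower, against 4.46% of all genes tested (1.63% higher and 2.83% lower), and the median was -0.64 over the members and -0.05 over all genes. The 6 lower were Cyp3a11, Cyp3a25, Cyp2b10, Cyp4b1, Cyp4v3 and Cyp2u1, each of which had its highest TCT value in TCT I V replicate 3. Cyp3a11, Cyp3a25 and Cyp2b10 fell under the count filter in the TCT model and held 5, 5 and 14 counts over TCT NI V. They entered the joint fit through the TNF libraries, and no difference between the models is read from their values. The count was 2 without TCT NI V replicate 6, 4 without TCT NI V replicate 7 and 12 without TCT I V replicate 2.

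Without that library 2 members were called between the models, against 3.55% of all genes tested. Cyp4v3 gave a difference of -1.91 ± 0.34 (adjusted p = 0.000832), and had 17.2 to 36.2 CPM in the remaining TCT I V libraries, against 15.5 to 29.3 CPM in TCT NI V libraries. Cyp2d34 gave a fitted difference of 6.09 ± 1.23 (adjusted p = 0.00247). It fell under the count filter in the TNF model, with 44 counts over TNF I V and 1 over TNF NI V. It entered through the TCT libraries, so no difference is read from it. Its TNF values were 0.752, 2.21, 1.55, 0.244 and 0 CPM in TNF I V and 0, 0, 0, 0 and 0.117 CPM in TNF NI V libraries, and it had 23.5 to 84.7 CPM in the remaining TCT I V and 66.4 to 234 CPM in TCT NI V libraries. For Cyp4f18 and Cyp7b1 the differences were -0.78 (95% CI -2.04 to 0.48) and -0.19 (95% CI -1.18 to 0.79).

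The same contrast under the inhibitor rests on other libraries. Of 32 members tested, 3 were higher and 12 lower in TNF I MKI than in TNF NI MKI, against 11.6% of all genes tested (7.23% higher and 4.36% lower), and the median was -1.14 over the members and -0.01 over all genes. Cyp3a59 and Cyp17a1 entered this fit too through the non-inflamed libraries, where any call of theirs could only be lower. Cyp1b1 had 41 to 93.5 CPM with a median of 67.4 CPM in TNF I MKI libraries, against 8.53, 5.99, 3.39, 6.56 and 5.68 CPM in TNF NI MKI libraries (log2 fold change 3.38 ± 0.49, adjusted p = 0.000185). Cyp7b1 (2.37 ± 0.42) and Cyp4f18 (2.26 ± 0.46) were higher, and Cyp4b1 (-3.10 ± 0.58), Cyp2d26 (-3.05 ± 0.68), Cyp2u1 (-2.21 ± 0.45), Cyp27a1 (-1.73 ± 0.32), Cyp3a25 (-1.57 ± 0.30), Cyp4v3 (-1.48 ± 0.34), Cyp3a13 (-1.46 ± 0.42) and Cyp2c65 (-1.34 ± 0.34) were lower. In each of these genes the groups did not overlap. Only TNF I MKI replicate 1 shares a batch with the TNF NI MKI libraries. Without it the count was 6, in batch 2 alone, with that library against 5, it was 4, and without TNF I V replicates 1, 3 and 5, which enter through the shared spread, it was 6.

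Of 38 members tested, 2 were higher and 9 lower in TCT I MKI than in TCT NI MKI, against 22.7% of all genes tested (12.3% higher and 10.4% lower), and the median was -1.17 over the members and 0.0 over all genes. Cyp4f18 had 11.9 to 20.6 CPM with a median of 13.7 CPM in TCT I MKI and 0.99 to 5.9 CPM with a median of 1.32 CPM in TCT NI MKI libraries (2.79 ± 0.47, adjusted p = 0.000465). Cyp7b1 had 3.56 to 6.82 CPM with a median of 4.98 CPM in TCT I MKI and 0.33 to 1.92 CPM with a median of 1.4 CPM in TCT NI MKI libraries (1.98 ± 0.35, adjusted p = 0.000659). Both pairs of groups stood apart. Cyp2c55 was called here, with 0.134 to 42.2 CPM and a median of 8.59 CPM in TCT I MKI libraries, against 103 to 1020 CPM and a median of 452 CPM in TCT NI MKI libraries (-4.51 ± 1.54, adjusted p = 0.0411), with no overlap. Cyp2s1 (-1.85 ± 0.44), Cyp2c68 (-2.14 ± 0.57) and Cyp2d22 (-1.88 ± 0.63) fell. Cyp2c23 (-2.36 ± 0.54) was called lower, with at most 0.394 CPM in TCT I MKI libraries. It passed the count filter through the non-inflamed TCT libraries, so its fitted size is not read as support. The 4 Cyp2c copies summed to 20.1 ± 16.0 CPM in TCT I MKI and 140 ± 70.0 CPM in TCT NI MKI libraries (SD, n = 6 each). The count of 11 was 18 without TCT I V replicate 3, which enters this fit through the shared spread, against 30.0% of all genes tested, and Cyp3a13, Cyp4b1, Cyp2d10, Cyp2d12 and Cyp2d34 were among the further falls. It was 7 without TCT I MKI replicate 1 or 2 or TCT NI MKI replicate 6, and 6 without TCT I MKI replicate 6. Within batches it was 14 in batch 1, with 2 TCT I MKI and 4 TCT NI MKI libraries, 0 in batch 3 and 0 in batch 4, where 5 and 2 members had an unadjusted p under 0.05 by edgeR and at least 1 group held 1 library.

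No P450 gene was called for the inhibitor against vehicle. By edgeR 0 of 32 members passed in TNF I MKI against TNF I V, 0 of 32 in TNF NI MKI against TNF NI V, 0 of 38 in TCT I MKI against TCT I V and 0 of 38 in TCT NI MKI against TCT NI V, with 0.0% of all genes tested called in each. At an unadjusted p under 0.05 there were 3, 4, 5 and 0 members in the same order. Over all genes these were 191 of 14370 for TNF I, 373 of 14370 for TNF NI and 182 of 15317 for TCT NI. The members' share was larger than that of all genes in TNF I, TNF NI and TCT I, and smaller in TCT NI. The members include related copies, and the difference in share was not tested. DESeq2 called 0 in each, with 5, 4, 4 and 1 at an unadjusted p under 0.05, and limma on the normalized signal called 0 in each, with 3, 3, 3 and 0. The unadjusted counts over all genes are not given for DESeq2 and limma, so nothing is read from theirs. These misses do not show that levels were alike: the 95% confidence interval lay within 1 log2 unit either side of 0 for 9 of 32, 16 of 32, 5 of 38 and 5 of 38 members.

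In inflamed TNF tissue Cyp2s1 had 62.4 to 79.2 CPM with a median of 74.4 CPM in TNF I MKI libraries, against 44.4, 61.3, 78.8, 61.2 and 75.1 CPM in TNF I V libraries (log2 fold change 0.08, 95% CI -0.35 to 0.50), and the groups overlapped. Cyp4v3 gave 0.01 (95% CI -0.61 to 0.62), Cyp4f18 gave 0.34 (95% CI -0.55 to 1.23), and Cyp4b1 gave -0.27 (95% CI -1.29 to 0.75). Cyp1b1 had 41 to 93.5 CPM with a median of 67.4 CPM in TNF I MKI libraries, against 67.2, 27.9, 30.5, 19.2 and 44 CPM in TNF I V libraries (0.76, 95% CI -0.17 to 1.69). Fibroblast genes summed to 1230 to 2020 CPM in TNF I MKI and 709 to 1400 CPM in TNF I V libraries beside it, and batch differed too, with 5 of 6 TNF I MKI libraries from batch 3 and 4 of 5 TNF I V libraries from batch 2.

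In non-inflamed TNF tissue, where all 10 libraries shared batch 2, Cyp2c55 had 453, 239, 519, 82.8 and 323 CPM in TNF NI MKI libraries, against 97.8, 195, 122, 197 and 132 CPM in TNF NI V libraries (log2 fold change 1.10, 95% CI 0.19 to 2.01, adjusted p = 1.0), with 4 of 5 inhibitor libraries above every vehicle library. Cyp3a25 gave 0.57 ± 0.20 and Cyp2c66 1.81 ± 0.59, neither passing. Cyp2e1 had 0, 0, 7.49, 0 and 5.5 CPM in TNF NI MKI libraries, against 26.3, 142, 29.6, 23.2 and 24.7 CPM in TNF NI V libraries, with no overlap (-4.26, 95% CI -7.13 to -1.39, adjusted p = 1.0). Adipoq, a hormone gene of fat cells, ran beside it with 0.176, 0.113, 3.08, 0.38 and 9.53 CPM in TNF NI MKI libraries and 12.8, 123, 18.2, 24.1 and 15.8 CPM in TNF NI V libraries. In the TCT model the highest Cyp2e1 value, 188 CPM in TCT NI MKI replicate 1, also stood beside the highest Adipoq value, 95.5 CPM. The 8 adipocyte genes summed to 41.8 to 128 CPM in TNF NI MKI and 170 to 1540 CPM in TNF NI V libraries, and the part of fat tissue in the Cyp2e1 values was not tested.

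In inflamed TCT tissue Cyp4f14 had the lowest fitted value, -9.70 ± 2.88 with all libraries and -9.31 ± 2.94 without TCT I V replicate 3 (adjusted p = 0.998 and 1.0). It stood at 0.285, 6.1, 0, 0, 0 and 0 CPM in TCT I MKI libraries, against 10.4, 0, 15.2, 0.302, 0.208 and 12.3 CPM in TCT I V libraries, and the groups overlapped. For other genes the fitted value moved with TCT I V replicate 3. Cyp4b1 gave -4.58 ± 1.52 with that library and -1.19 ± 0.48 without it, Cyp2u1 -2.53 ± 0.98 and -0.62 ± 0.39, and Cyp3a13 -2.0 ± 0.88 and -0.44 ± 0.37. Cyp4f18 gave -0.13 (95% CI -1.21 to 0.96) and Cyp7b1 -0.02 (95% CI -0.75 to 0.71). In non-inflamed TCT tissue Cyp2s1 gave 0.30 (95% CI -0.57 to 1.16) and Cyp2c55 0.34 (95% CI -2.52 to 3.21). Cyp1a1 and Cyp11a1, the first enzyme of steroid synthesis, reached at most 1.74 CPM each in the TCT NI MKI libraries and passed in none of these comparisons that tested them.

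**Figure D5:**
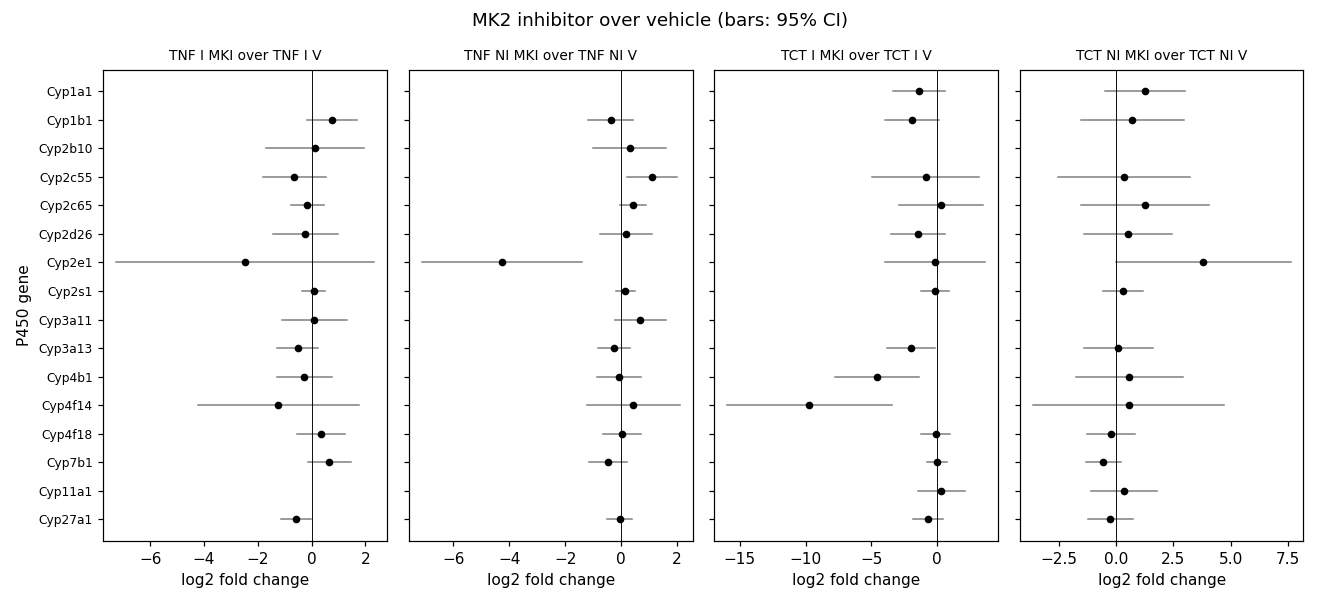
Log2 fold change with its 95% confidence interval, inhibitor over vehicle, of 16 P450 genes in the 4 settings, each panel on its own axis. No gene passes the adjusted threshold, and the TCT I panel spans the widest range, with Cyp4f14 at -9.70 and Cyp4b1 at -4.58 with TCT I V replicate 3 included.

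Of 8 electron donors and partners 0 rose and 2 fell in TNF I V against TNF NI V, namely Pgrmc1, a haem-binding partner of P450s (-0.90 ± 0.20, adjusted p = 0.00369), and Cyb5b, the mitochondrial outer membrane cytochrome b5 (-0.69 ± 0.13, adjusted p = 0.00135). In TCT I V against TCT NI V none of the 8 was called by edgeR, with adjusted p of 0.189 or more. The P450 reductase gene Por had 133 to 145 CPM in TNF I V and 96.6 to 161 CPM in TNF NI V libraries. Of 12 genes of haem synthesis and breakdown 2 rose and 0 fell in TNF I V. Hmox1, the inducible haem oxygenase, averaged 22.2 ± 7.86 CPM in TNF I V and 3.20 ± 1.08 CPM in TNF NI V libraries (2.81 ± 0.27), and Alas1, the first enzyme of haem synthesis, rose (0.65 ± 0.19). In TCT I V 1 of 12 rose, Hmox1 (2.61 ± 0.58, adjusted p = 0.00883).

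Of 24 receptors and other regulators of P450 genes 23 were tested. In TNF I V 1 rose and 5 fell, with a median log2 fold change of -0.36. Hnf4g (-1.38 ± 0.23) and Hnf4a (-0.38 ± 0.12), nuclear factors of epithelial genes, Nr1i2, the pregnane X receptor (-0.58 ± 0.15), and Ppara, a fatty acid receptor (-1.22 ± 0.33), fell. Cebpb rose (0.86 ± 0.15 in TNF I V and 1.30 ± 0.26 in TCT I V). These lists are given as counts and values, and no link from any of them to a P450 gene was tested.

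Some members were described by level alone. In the TNF model 14 members fell under the count filter: Cyp1a1, Cyp2c40, Cyp2c67, Cyp2c69, Cyp2d9, Cyp2d10, Cyp2d12, Cyp2d34, Cyp2d40, Cyp2f2, Cyp2w1, Cyp4f39, Cyp4x1 and Cyp11a1. In the TCT model 8 did: Cyp2b10, Cyp2c66, Cyp3a11, Cyp3a25, Cyp3a44, Cyp3a59, Cyp4f39 and Cyp17a1. Cyp2c67 and Cyp4f39 were the 2 members left out of the joint fits. Cyp20a1 ran from 8.83 to 25.9 CPM over all 44 libraries and Cyp2j6, which epoxidises arachidonic acid, from 44.6 to 213 CPM, so that every library held both. Cyp2r1, a vitamin D hydroxylase, stayed at or below 2.61 CPM, and Cyp39a1, an oxysterol hydroxylase, at or below 2.35 CPM, and neither was called in any of the comparisons.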

How the data were processed

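RNA of whole intestine was sequenced after poly-A selection with a strand-specific kit, per the labels' protocols. For each model the authors deposited 1 table of expected counts, given as whole numbers, and 1 table of normalized signal. Salmon 0.14.1, DESeq2 and the builds mm10 and GRCm38 are named per the submitters' processing notes, and the annotation release is not given in the sources used here. Salmon divides reads among similar transcripts, so values of near-identical copies are uncertain. Of 29720 gene identifiers, 29395 matched a symbol in GENCODE M21 and 325 did not. Across 100 pairs of libraries within groups the mean chi-square per gene was 8.31 or more, so no library was counted as a copy of another.

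The members, gene lists, tests and alternatives were chosen with earlier results of these data known. Tests were made in R 4.3.3 with edgeR 4.0.16 on the expected counts: filterByExpr, TMM scaling, robust quasi-likelihood F-tests (two-sided) on the 4 groups of a model with batch as a term, adjusted by Benjamini-Hochberg over all genes at 0.05. Differences between models came from a fit of all 44 libraries, with batch nested in model for the inflammation effects and no batch term between the non-inflamed groups. CPM come from the deposited expected counts and TMM-scaled library sizes. Fold changes are log2 values, adjusted for batch except between the non-inflamed groups of the TNF and TCT models. Their SE is the absolute log2 fold change divided by the square root of the F statistic. The fit was tested on simulated counts. Named in each comparison, where measured, were 20 P450 genes listed by symbol, 16 of them members, up to 15 called members with the largest change, and the highest members per length. The others named were chosen after their values were seen. Intervals and floors on counts cover counting error only. Alternatives were RLE scaling, DESeq2 1.42.0, limma 3.58.1 on the deposited signal after adding 1 or limma-voom, fits with no count filter or with no term for batch, blocking on replicate number, fitting only the compared groups, single batches and each library left out. Leaving out the libraries with ileal transcripts (TCT I V replicates 1 and 3) or with high Car1 (TNF I V replicates 1, 3 and 5) was added after the data were seen. The result of 1 regulator gene is not reported here.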

Additional observations from a re-analysis of the deposited data

Results flagged for a closer look

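Of 113 groups of P450 values checked, 22 held a library far from the others, each on the high side. The nominal rate of this check, 5 of 100, holds for normally distributed values. Whether CPM within groups are so distributed was not tested, so the 22 are not read against that rate. TCT I V replicate 3 accounts for 6 of them, where the next highest library of the group is given second: Cyp2b10 at 107 and 5.71 CPM, Cyp2c65 at 170 and 22.2 CPM, Cyp2d26 at 99.5 and 16.8 CPM, Cyp3a11 at 353 and 7.5 CPM, Cyp3a13 at 1160 and 117 CPM, and Cyp4b1 at 203 and 6.52 CPM.

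Cyp2e1 stood apart at 65.0 CPM in TNF I MKI replicate 6, 142 CPM in TNF NI V replicate 2 and 188 CPM in TCT NI MKI replicate 1, with the next libraries at 23.7, 29.6 and 13.0 CPM, and those 3 libraries also had the highest Adipoq of their groups, at 68.9, 123 and 95.5 CPM. Cyp4f14 stood at 83.2 CPM in TNF I V replicate 2, 6.1 CPM in TCT I MKI replicate 2, 11 CPM in TCT NI MKI replicate 3 and 5.19 CPM in TCT NI V replicate 4, against at most 3.66, 0.285, 1.54 and 1.47 CPM elsewhere in those groups.

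Single high values were Cyp1a1 at 2.49 CPM in TNF NI MKI replicate 2, Cyp2b10 at 10.5 CPM in TNF I MKI replicate 4, Cyp7b1 at 8.04 CPM in TNF I V replicate 1 and Cyp4f18 at 5.9 CPM in TCT NI MKI replicate 5. In TCT I MKI libraries they were Cyp2c55 at 42.2 CPM in replicate 1, Cyp3a13 at 97.6 CPM in replicate 3, Cyp4b1 at 2.21 CPM in replicate 5 and Cyp11a1 at 1.16 CPM in replicate 2. Cyp11a1 was at 1.18 CPM in TCT I V replicate 6.

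For 7 genes the test of the difference itself called the inflammation effect on vehicle different between the models (TNF minus TCT, log2). Of these, Cyp3a25, Cyp2b10 and Cyp3a11 fell under the count filter in the TCT model and Cyp2d34 in the TNF model, so their differences are fitted values from which nothing is read. With all libraries the differences were -3.34 for Cyp2u1, -5.93 for Cyp4b1, -10.4 for Cyp3a25, -8.64 for Cyp2b10, -10.56 for Cyp3a11, -4.06 for Cyp4v3 and 6.34 for Cyp2d34. Without TCT I V replicate 3 they were -1.06, -1.77, -3.04, -2.82, -1.38, -1.91 and 6.09 for the same genes in that order, and the adjusted p stayed under 0.05 for Cyp4v3 and Cyp2d34.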

How the results depend on the processing

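Counts of called members are given under each setting that moved them by over 1.5 times. The shares over all genes are not given for the alternatives listed here, so their counts show only how far the number of called members moved. TNF I V against TNF NI V gave 20, and 12 with the 2 groups alone and 7 without TNF I V replicates 1, 3 and 5. TCT I V against TCT NI V gave 8, and 5 with no filter on low counts, 14 by DESeq2, 16 with no batch term, 2 with the replicate block, and by edgeR 0 with the 2 groups alone or in batch 4 (6 and 4 at an unadjusted p under 0.05). TNF I MKI against TNF NI MKI gave 15, and 4 in batch 2 and 6 without TNF I V replicates 1, 3 and 5. TCT I MKI against TCT NI MKI gave 11, and by edgeR 0 in batch 3 or batch 4 (5 and 2 unadjusted) and 18 without TCT I V replicates 1 and 3. TNF NI V against TCT NI V gave 27, and 12 with batch as a common term. The difference of the inflammation effects gave 7, and 12 by DESeq2 or with no batch term, 2 by limma-voom and by edgeR 0 with the replicate block (8 unadjusted). Leaving out 1 library at a time gave 14 to 19, 1 to 15, 6 to 17, 6 to 18, 26 to 28 and 2 to 12 members for these 6 comparisons in turn, and 0 for each inhibitor comparison. Same-numbered libraries deviated together in some pairs and not in others, with median correlations by comparison from -0.0875 to 0.3865. Some pairs also share a batch, so whether the numbers pair the libraries is not settled, and the main fits do not pair them. The replicate block gave 14, 22, 15 and 19 for the comparisons of TNF I V, TNF I MKI, TCT I MKI and TNF NI V. No called member changed direction under an alternative. The causes of these shifts were not tested. Wide spread in the TCT groups, unequal batches and low counts limit what could be detected, and values of near-identical copies rest on how their reads were divided.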
